A study of Caenorhabditis elegans with 2 samples.

Results

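The genes described here, picked by name, are a part of the nuclear genes for the mitochondrial respiratory chain and the ATP synthase of Caenorhabditis elegans. Some of them serve assembly. A further 35 nuclear genes for subunits or their inhibitors lie outside the rule and are described near the end. The readout is where the chromatin protein HMG-1.1 was mapped next to the genes. Members were all protein-coding genes of the Ensembl annotation of WBcel235 whose symbol starts with nuo-, cox-, cyc-, ucr-, sdha-, sdhb-, sdhd-, atp-, asb- or asg-, together with gas-1, isp-1 and mev-1. The rule found 45 genes among 19973 nuclear protein-coding genes. It used no measured value, but the members and the lists of other genes were chosen with earlier results of these data known. For each gene the nearest peak summit within 1000 bp of the annotated start was taken from the peak list that the authors call conservative.

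The animals were strain RW12311, which carries a CRISPR insertion at hmg-1.1 itself (allele st12311) that fuses TY1, EGFP and 3xFLAG tags to the protein. Whole L4 larvae were collected at 48 hours after synchronisation by starving L1 larvae that had been obtained by bleaching. Chromatin immunoprecipitation with an anti-GFP antibody and sequencing was done on 2 biological replicates, which form 1 group, and both carry the insertion. The tagged protein stands in for the untagged one, whole animals mix all tissues so that no summit can be assigned to a cell type, and the control experiment that the labels name was not analysed here.

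The respiratory chain sits in the mitochondrial inner membrane. Complexes I and II take electrons from NADH and succinate, complex III passes them through cytochrome c to complex IV, where oxygen is reduced, and the proton gradient built on the way drives complex V, the ATP synthase. Most subunits are encoded in the nucleus, from genes scattered over the chromosomes, and a few core subunits in mitochondrial DNA, so the parts have to be made in matching amounts. HMG-1.1 belongs to the high mobility group box proteins, small chromatin proteins that bend the DNA they contact and show little preference for its sequence. In worms many genes are expressed with a spliced leader or from operons, so transcription may begin some way before the start that is annotated.

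A summit within 1000 bp of the start was found at 24 of the 45 genes (53.3%), against 13.0% of all nuclear protein-coding genes (2599 of 19973). Summits lay upstream of the start at 22 of the 45 genes, against 10.9% of all genes, and downstream at atp-1 and cyc-2.1. Among genes with a summit the upstream shares were closer, 91.7% of the 24 members and 84.1% of the 2599 genes. By complex, summits stood at 5 of 7 genes for subunits of complex IV and 6 of 9 for complex V. They stood at 3 of 5 for complex II, 4 of 7 for complex III and 3 of 7 for complex I. Of the 2 cytochrome c genes 1 had a summit, and of 8 genes for assembly of complex IV 2 had one. Only genes that fit the rule are counted, so complex I genes under other names, such as nduf- and ndua-, are not among the 7. With 1 group and a few genes per complex these counts carry no test, and neighbouring genes can share a summit.

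Each replicate also has its own thresholded list. In that of replicate 1 a summit stood within 1000 bp of 18 of the 45 genes, against 8.16% of all genes, and in that of replicate 2 of 18 of the 45, against 9.63%. Before any threshold, 42 of the 45 genes had a ranked peak within that distance, but so did 64.9% of all genes. The 24 summits belonged to 24 distinct peaks, and no gene had more than 1. The conservative list held 4277 peaks, the replicate lists 2613 and 3082, and no list had a peak on mitochondrial DNA.

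Where a summit was present, its place differed little from that at other genes. The median position was -204.5 bp from the start, with quartiles of -302.25 and -147 bp, against -208 bp at the 2599 genes with a summit, whose quartiles were -406.5 and -73.5 bp. Between 100 and 350 bp upstream lay 16 of the 24, and the share of the 2599 genes in that range is not given here. The signal, the authors' enrichment value for a peak on a scale that is not stated, had a median of 166.5 over the 24 genes, with quartiles of 98.8 and 227.9, against 124.1 over the 2599 genes, with quartiles of 88.9 and 189.6. It exceeded the median of the whole list, 110.5, at 15 of the 24, and 11 were among the 1000 highest of its 4277 peaks. The median over the 2599 genes was itself above that of the list, so a value above 110.5 is usual near a start. The share of those genes among the 1000 highest peaks is not given here. Signals are values of peaks and not of conditions, and the ranges overlap broadly.

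**Figure D1:**
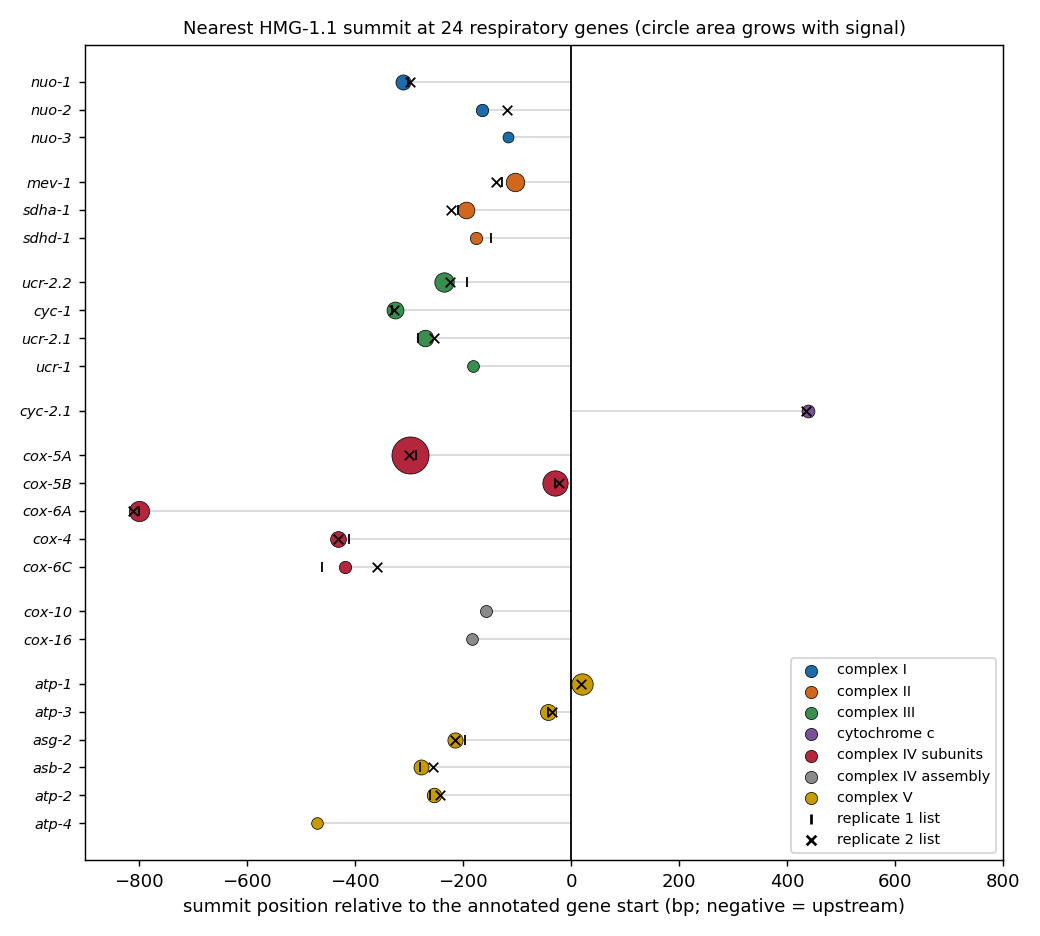
Position of the nearest summit of the conservative list (circles, area growing with the signal) relative to the annotated gene start, in bp, for the 24 genes with a summit within 1000 bp, coloured by complex and sorted by signal within it; bars and crosses mark the overlapping peaks of the lists of replicates 1 and 2. All circles lie upstream of the start except those of atp-1 at 20 bp and cyc-2.1 at 438 bp, and cox-6A at -800 bp stands farthest out.

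The highest signals stood at genes of complex IV, cytochrome c oxidase. At cox-5A (WBGene00012553, III, 12905491 to 12906619, plus strand), which encodes a small nuclear subunit, the summit lay at -299 bp with a signal of 1170, rank 2 of the 4277 peaks. Replicate 1 gave 554.0 and replicate 2 gave 626.9, rank 2 in each of their lists, at -288 and -300 bp. At cox-5B (WBGene00000371), a subunit that binds zinc in mammals, the summit lay at -29 bp with a signal of 525.8, and the replicates gave 204.3 and 315.1. No other member reached these values in the joint list or in either replicate.

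The other summits of this complex lay farther from their genes. At cox-6A (WBGene00006519), subunit 6A, the summit at -800 bp had a signal of 324.8, with 155.5 in replicate 1 and 169.7 in replicate 2. At cox-4 (WBGene00012354), subunit 4, it lay at -431 bp with 184.0, and the replicates gave 94.1 and 91.5. The weakest, at cox-6C (WBGene00017926), lay at -419 bp with 99.1, and the replicates gave 53.5 and 50.9. All 5 were in both replicate lists, and their median position of -419 bp was the farthest upstream of the complexes with 3 or more summits. The cox-6C summit was nearer to the start of the opposite gene grld-1, at -381 bp.

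The remaining subunit genes of complex IV, cox-6B and cox-7C, had no summit by the rule. cox-6B (WBGene00022170, III, 2699663 to 2786859) has an annotated start far upstream of its other transcripts. From the transcript start at 2786202, a summit lay at -145 bp with a signal of 335.0. Counting any transcript start would therefore give 25 of 45 genes. That summit is also within 1000 bp of the complex I gene nduc-2, at -795 bp, and the nearest start is that of Y71H2AM.20, at -109 bp. For cox-7C the list of replicate 1 held a summit at 886 bp downstream with a signal of 43.1, and the conservative list held none.

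Of the 8 genes for building complex IV, 2 (25%) had a summit, against 13.0% of all nuclear protein-coding genes. cox-10, for the farnesyltransferase that makes heme O, had a summit at -157 bp with a signal of 92.3, and cox-16, an assembly gene, at -183 bp with 85.9. Neither peak was in a replicate's thresholded list. In the replicates' ranked lists cox-10 had 34.6 and 53.8, and cox-16 had 48.3 and 41.7. Neither gene had the nearest start: that was Y38E10A.33 at -151 bp for cox-10, and for cox-16 it was syp-2 at -61 bp. The other 6 had no summit: cox-11 and cox-17, whose products handle copper for the enzyme, cox-15, for heme A synthesis in yeast and human, cox-18 and cox-19, whose yeast namesakes are needed for assembly, and cox-14, annotated as an assembly factor. Of these, cox-11, cox-15, cox-17, cox-18 and cox-19 had a same-strand neighbour ending within 200 bp upstream. Among all genes so placed, 7.60% had a summit.

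In complex V, summits stood at the genes for the alpha and beta subunits and for the protein that joins the catalytic head to the stator. At atp-1 (WBGene00010419), the alpha subunit, the summit fell 20 bp inside the gene, in its 5' UTR, with a signal of 365.4, and the replicates gave 184.8 and 181.0. At atp-2 (WBGene00000229), the catalytic beta subunit, it lay at -253 bp with 150.7, and the replicates gave 66.2 and 88.1. At atp-3 (WBGene00000230), the oligomycin sensitivity conferring protein, which joins the catalytic head to the stator, it lay at -43 bp with 190.7, and the replicates gave 75.4 and 116.9. The atp-1 value was thus about level between the replicates, while atp-2 and atp-3 were higher in replicate 2, on a scale not known to be common to the lists.

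Among members for subunits b and g, in the membrane part of complex V, the X-linked copies had a summit. asb-2, for subunit b, had a summit at -278 bp with a signal of 163.0, and 73.5 and 85.6 in the replicates. asg-2, for subunit g, had one at -214 bp with 168.2, and 81.7 and 90.9 in the replicates. The weakest summit of the complex stood at atp-4, coupling factor 6, at -471 bp with 85.4, within the 3' UTR of the upstream gene alh-4. It was absent from both replicate lists and from the other thresholded list of the series, and the ranked lists gave 29.5 and 44.9. The genes without a summit were atp-5, for subunit d, asb-1 and asg-1.

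Complex III had 4 summits between -326 and -182 bp. At cyc-1 (WBGene00000869), for cytochrome c1, the summit lay at -326 bp with a signal of 215.3, and the replicates gave 104.8 and 119.4. The core protein genes ucr-2.1 (WBGene00012158) and ucr-2.2 (WBGene00011679) had summits at -270 bp with 205.9 and at -235 bp with 294.4. Replicates 1 and 2 gave 108.3 and 97.0 for ucr-2.1, and 116.4 and 175.5 for ucr-2.2. The ucr-2.1 summit was nearer to nmat-1, an adenylyltransferase gene of nicotinamide nucleotide metabolism on the opposite strand, at -116 bp. The summit at ucr-1, the other core protein, had 88.0 at -182 bp and was in neither replicate's list, with 57.3 and 38.8 in their ranked lists. isp-1, for the Rieske iron-sulfur protein, the small subunit gene ucr-11 and the core protein gene ucr-2.3 had none.

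Complex II, succinate dehydrogenase, has a flavoprotein, an iron-sulfur protein and a pair of membrane anchors. At mev-1 (WBGene00003225), the cytochrome b560 anchor, whose mutant is sensitive to methyl viologen and short-lived, the summit lay at -103 bp with a signal of 265.4, and the replicates gave 102.7 and 162.8. At sdha-1 (WBGene00015391), a flavoprotein gene, it lay at -195 bp with 210.9, and the replicates gave 91.5 and 126.9. At sdhd-1, the other anchor, it lay at -176 bp with 98.1, in the list of replicate 1 with 47.8, while the ranked list of replicate 2 gave 54.1. Its nearest start was the opposite gene ilkp-1, at -166 bp. The iron-sulfur gene sdhb-1 and the second flavoprotein gene sdha-2 had none.

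Complex I is the NADH dehydrogenase. At nuo-1 (WBGene00003831), the flavoprotein where NADH is oxidised, the summit lay at -312 bp with a signal of 164.9, and the replicates gave 75.4 and 84.2. At nuo-2, whose product is named iron-sulfur protein 3, it lay at -165 bp with 100.4 and fell in the 3' UTR of T10E9.14. This summit was in replicate 2's list with 76.2 and in neither list of replicate 1. At nuo-3, an accessory subunit, it lay at -117 bp with 69.8, the lowest of the 24. That peak was in neither thresholded replicate list, with 47.4 and 32.0 in the ranked ones, and it alone of the 24 had a q-value above 0.05, at 0.066. The core subunit genes gas-1 and nuo-5 and the accessory subunit genes nuo-4 and nuo-6 had no summit.

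Cytochrome c, the mobile carrier between complexes III and IV, is encoded by cyc-2.1 and cyc-2.2. The cyc-2.1 summit lay 438 bp downstream of the start, in an intron, with a signal of 109.9. It was in replicate 2's list with 76.6, while the ranked list of replicate 1 gave 36.3. cyc-2.2 starts inside the larger gene cubn-1 and had no summit. Among all genes that start inside another gene, 11.6% had one, and cyc-2.2 was the only member of that kind (0 of 1).

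**Figure D2:**
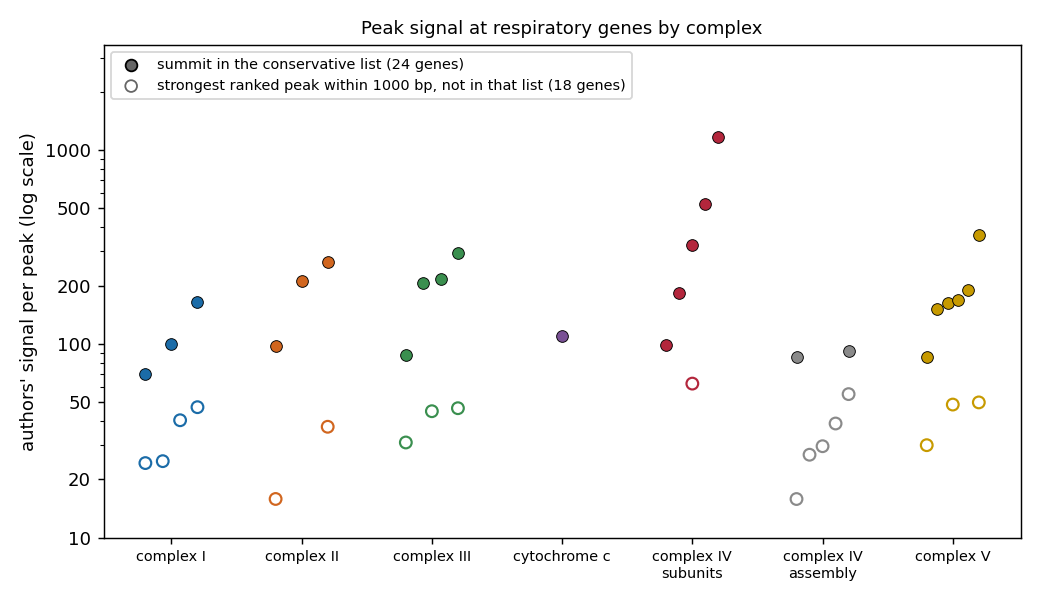
The authors' signal per peak on a log axis, by complex. Filled circles are the 24 summits of the conservative list and open circles the strongest ranked peak within 1000 bp of 18 genes without a summit, whose values run from 15.8 to 62.4; the highest filled circles belong to cox-5A and cox-5B at 1170 and 525.8.

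Support by the replicates was counted as an overlap of at least 1 bp with a peak of their own thresholded lists. Of the 24 member summits, 16 (66.7%) were in both lists, 3 in 1 list and 5 (20.8%) in neither. Over the 2013 peaks nearest to a protein-coding start within 1000 bp, 50.4% were in both, 23.8% in 1 and 25.7% in neither. The 5 in neither list were nuo-3, ucr-1, cox-10, cox-16 and atp-4, whose joint signals, from 69.8 to 92.3, were the 5 lowest of the 24. A q-value above 0.05 was given for 11.1% of those 2013 peaks and for 1 of the 24.

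**Figure D3:**
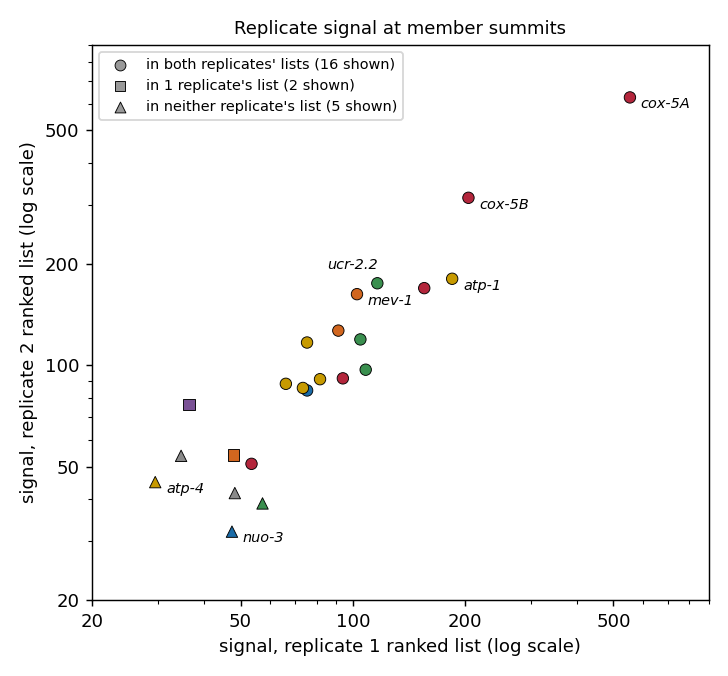
Signal of the overlapping peak in the ranked list of replicate 1 against that of replicate 2, both on log axes, for the member summits, coloured by complex as in the plot of positions; nuo-2 has no ranked peak in replicate 1. Symbols show in how many thresholded replicate lists the peak stood: cox-5A and cox-5B are highest in both replicates, and the peaks in neither list have signals of at most 57.3.

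Several subunits have more than 1 gene among the members, and in each of these sets at least 1 copy had no summit. Summits stood at asb-2 but not at asb-1, the copy known from the germline, at asg-2 but not asg-1, at sdha-1 but not sdha-2, at ucr-2.1 and ucr-2.2 but not ucr-2.3, and at cyc-2.1 but not cyc-2.2. Of these, asb-2, asg-2, sdha-1, ucr-2.1 and ucr-2.2 are X-linked, and cyc-2.1 and the copies just named without a summit are autosomal. A complex I pair that the rule splits, gas-1 and the non-member nduf-2.2, went the other way. The X-linked gas-1 had no summit, and the autosomal nduf-2.2 had one at -788 bp with a signal of 267.4, nearer to the start of dlc-1. On the X chromosome 5 of 6 members had a summit, with gas-1 as the exception, against 15.5% of all X-linked genes. On the autosomes it was 19 of 39 members, against 12.6%. In the asb, asg, sdha and ucr-2 sets, X linkage and the identity of the copy go together and cannot be told apart.

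Most genes without a summit had a weak ranked peak. Of the 21, a peak of the joint ranked list lay within 1000 bp at 18, and the strongest of each had signals from 15.8 to 62.4, with a median of 38.1. Such a peak is usual: 64.9% of all nuclear protein-coding genes, with or without a summit, had one. The share over genes without a summit is not given here. The peak nearest to the threshold was that of asg-1, at -376 bp with a signal of 49.9 and a global IDR of 0.014. isp-1 had 45.0 at -240 bp and nuo-6 had 40.4 at -246 bp, both upstream of the start. Their global IDR differed, 0.053 for isp-1 and 0.639 for nuo-6, so the nuo-6 peak was poorly reproduced. gas-1 had 47.2 at 872 bp, asb-1 had 48.7 at 62 bp, cox-19 had 55.1 at 979 bp and ucr-11 had 46.6 at 662 bp, all downstream of the start. In that order their global IDR was 0.046, 0.671, 0.428 and 0.245. For nuo-4, nuo-5, sdha-2, sdhb-1, ucr-2.3, cox-11, cox-15, cox-17, cox-18 and atp-5 the strongest had between 15.8 and 38.9. cox-14, cox-6B and cyc-2.2 had none at all.

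The limit of 1000 bp decided few genes. The member just inside it was cox-6A at -800 bp. Just outside lay ucr-11, whose nearest summit was at -1299 bp with a signal of 324.0, then sdha-2 at -1598 bp with 100.3 and isp-1 at 2332 bp with 84.9. Both upstream summits lay nearer to the start of the gene before. That of ucr-11 lay at -388 bp from dad-1, for a subunit of the oligosaccharyltransferase. That of sdha-2 lay at -127 bp from ndua-13, itself a complex I gene.

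That arrangement was examined further because worm genes in an operon follow each other closely on 1 strand. The split at 200 bp and the naming of the first gene were chosen after the values were seen. Of the 45 genes, 11 had a neighbour on the same strand ending within 200 bp upstream, and 3 of them (27.3%) had a summit, against 7.60% of all genes so placed. Of the other 34, 21 (61.8%) had one, against 13.6%. When the gap allowed was 500 bp in place of 200 bp, 6 of 16 had a summit (37.5%), against 8.81% of all genes so placed. In each of these groups the members' share was above that of all genes in the same position.

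For the 11, the start of the first gene of the run was then looked at, and 6 (54.5%) had a summit there, against 30.2% of all genes so placed. At rpl-20, a ribosomal protein gene 766 bp before cyc-2.1, the summit at -288 bp had a signal of 1022, rank 4 of the list, with 458.9 in replicate 1 and 547.7 in replicate 2. At Y55F3AR.2, before cox-18, it had 669.3 at -179 bp, with 311.0 and 347.4 in the replicates. Both exceed the 109.9 of the cyc-2.1 summit, and cox-18 had none of its own. At dad-1, before ucr-11, the replicates gave 135.5 and 180.2. At syf-2, a splicing factor gene that precedes nuo-4 with rnp-7 between them, the signal was 213.1, with 75.0 and 135.3 in the replicates. At Y45G12B.2, before nuo-5, it was 138.2, with 96.7 in replicate 2 and no summit in the list of replicate 1. For nuo-2 the first gene was T10E9.14, and its nearest summit was the one already counted for nuo-2. alh-4, JC8.4, cchl-1, ubc-20 and F45H11.8, before atp-4, cox-11, cox-15, cox-17 and cox-19, had none. The annotation used does not mark operons, so whether these genes are transcribed together was not tested.

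A divergent upstream neighbour was annotated for 25 of the 45 members and for 8420 of the 19973 nuclear protein-coding genes. Of 25 members whose upstream neighbour is divergent, 15 had a summit (60%), against 18.0% of all genes of this kind, and of 19 with a neighbour on the same strand 9 had one (47.4%), against 9.07%. At 15 of the 24 genes another protein-coding start lay within 1000 bp of the summit, and at 9 none did. The nearest start was that of the member at 19 and of another gene at 5, namely sdhd-1, ucr-2.1, cox-10, cox-16 and cox-6C. For these counts no share over all genes with a summit is given, so they are not read as a trait of the members. The nearest summits of the 2599 genes with one were 2013 distinct peaks, so shared summits occur across the list. Other summits stood almost evenly between a member and its opposite neighbour: at nuo-1 the ribosomal protein gene rpl-36.A started at -321 bp against -312 bp, at mev-1 the gene jmjd-4 at -156 bp against -103 bp, at atp-2 C34E10.10 at -280 bp against -253 bp, and at ucr-1 the helicase gene ddx-15 at -235 bp against -182 bp. Other pairs were asg-2 with glr-6, a glutamate receptor gene (-324 bp), atp-1 with mcrs-1 (-210 bp), atp-3 with F27C1.2 (-206 bp) and nuo-3 with WBGene00303007, on its own strand (-147 bp), and arl-8 (-488 bp). Farther starts within 1000 bp of a summit were those of ced-9 at mev-1 (-998 bp), Y38E10A.24 at cox-10 (762 bp), C24G6.8 at cox-16 (-552 bp) and tctn-1 at cyc-2.1 (-742 bp), and C34E10.12 started beside C34E10.10 at atp-2 (-283 bp). To which gene of a pair such a summit belongs cannot be told apart in these lists.

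**Figure D4:**
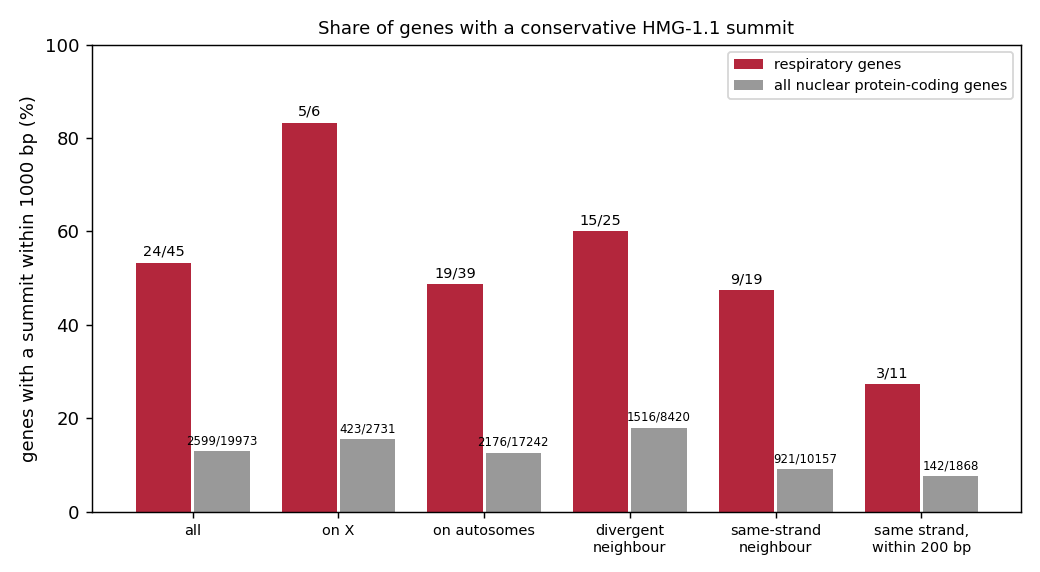
Share of genes with a summit of the conservative list within 1000 bp of the start, in percent, for the respiratory genes (red) and all nuclear protein-coding genes (grey), over all genes, by chromosome class and by upstream neighbour; the numbers over the bars are genes with a summit over genes in the class. The red bar is higher in each class shown, from 27.3% against 7.60% for a same-strand neighbour within 200 bp to 83.3% against 15.5% on the X chromosome.

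The sequence under the summits was read as 101 bp windows from the NCBI genome of WBcel235, the assembly also called ce11. To show what the summits look like, the windows of 7 genes are given 5' to 3' on the strand of the gene, with the letters ACGCA and their reverse complement TGCGT in capitals, a motif chosen after these windows were seen. They are cox-5A, with the highest signal, mev-1 and ucr-2.1, with strong summits and the motif, asb-2 and cyc-2.1, which hold its longer form CTGCGTCTC, atp-2, which is rich in G and C but lacks the motif, and nuo-3, with the weakest summit and the fewest G and C bases.
cox-5A, chrIII:12905142-12905242, plus strand: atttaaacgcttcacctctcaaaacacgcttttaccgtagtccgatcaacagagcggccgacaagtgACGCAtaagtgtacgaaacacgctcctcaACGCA
mev-1, chrIII:10334124-10334224, plus strand: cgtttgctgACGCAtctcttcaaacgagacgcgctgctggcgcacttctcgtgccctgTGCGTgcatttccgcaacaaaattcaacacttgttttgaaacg
ucr-2.1, chrX:12018109-12018209, plus strand: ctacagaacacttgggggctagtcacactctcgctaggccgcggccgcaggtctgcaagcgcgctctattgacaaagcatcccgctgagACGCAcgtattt
asb-2, chrX:4469438-4469538, plus strand: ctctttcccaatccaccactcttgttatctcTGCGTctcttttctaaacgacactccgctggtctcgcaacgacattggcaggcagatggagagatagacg
cyc-2.1, chrIV:4748524-4748624, minus strand: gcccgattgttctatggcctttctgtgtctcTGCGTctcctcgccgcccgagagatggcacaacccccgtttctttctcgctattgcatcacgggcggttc
atp-2, chrIII:5228114-5228214, plus strand: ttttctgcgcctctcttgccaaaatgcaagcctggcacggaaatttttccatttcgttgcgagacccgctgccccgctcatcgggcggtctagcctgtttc
nuo-3, chrIV:14797611-14797711, minus strand: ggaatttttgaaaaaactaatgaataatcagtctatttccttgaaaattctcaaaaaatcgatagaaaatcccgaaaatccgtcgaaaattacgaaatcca

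Most windows held more G and C than their surroundings. The median was 49.5% over the 24 summits, from 28.7% at nuo-3 to 58.4% at ucr-2.1 and cyc-2.1, against 38.9% for the mean of the windows 500 bp to either side. The summit window was higher at 20 genes, equal at cox-4 and lower at 3, nuo-3, cox-10 and atp-3. At cox-5A it was 48.5% against 26.7%. Over all 4277 summits the medians were 48.5% and 35.1%, and 10.8% of summits were lower than their flanks, so the respiratory genes were near the list as a whole.

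**Figure D5:**
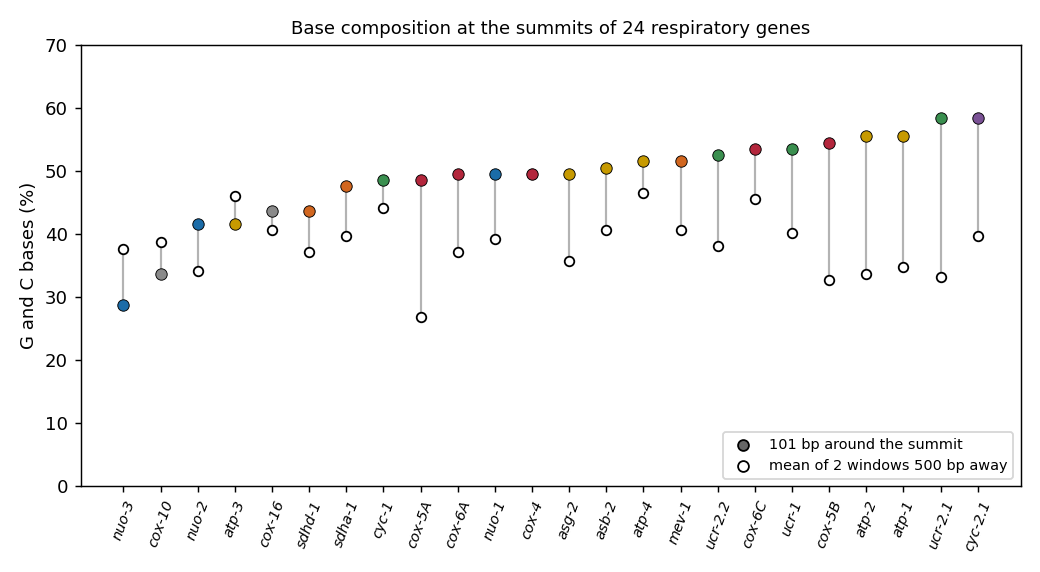
Share of G and C bases, in percent, in the 101 bp window around the summit (filled, coloured by complex) and as the mean of 2 windows 500 bp to either side (open), for the 24 genes with a summit, sorted by the summit value. The filled circle lies above the open one at 20 genes, and below it at nuo-3, cox-10 and atp-3.

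Short motifs were counted in the same windows on both strands. ACGCA was present at 14 of the 24 member summits (58.3%), against 30.0% of all 4277 summits and 8.53% of the flanking windows. Of windows of 101 bp centred 200 bp upstream of the starts of all nuclear protein-coding genes, 9.74% held it. GACGCA, which contains it, was present at 8 (33.3%), against 16.4% of all summits, and GAGACGC at 6 (25%), against 11.6%. CTGCGTCTC, which overlaps both, was present at 3 (12.5%), against 9.68% of all summits and 0.479% of flanking windows. These 4 were chosen after the member windows had been seen, so their shares among members are a description of that choice. GAGAGA was present at 3 (12.5%), against 28.2% of all summits. AAAAAA was present at 3 (12.5%), against 22.4% of all summits and 42.2% of flanks, TATAAA and the splice-acceptor letters TTTCAG at 1 each (4.17%), against 4.04% and 6.27% of all summits, and the E-box CACGTG at none, against 3.23%. A match is a run of letters and not a known binding site.

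Other genes of mitochondrial energy metabolism were taken from lists of names and identifiers. Of 35 further nuclear genes for respiratory chain or ATP synthase subunits and their inhibitors, 20 (57.1%) had a summit, with a median signal of 121.3. The strongest were nduc-2 (335.0 at -795 bp) and nduf-2.2 (267.4 at -788 bp), both nearer to another gene's start. Of 16 of the 32 entries of that list no gene of that name was matched. The pyruvate dehydrogenase and citric acid cycle genes had a summit at 12 of 21 (57.1%), with a median of 128.1, led by dld-1, the dihydrolipoyl dehydrogenase (344.2), and sucl-1, a subunit of succinyl-CoA ligase (299.6). These shares are near the 53.3% of the 45 members and above the 13.0% of all genes.

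Import genes of the mitochondrion had a summit at 7 of 15 (46.7%), with the chaperonin gene hsp-60 at 541.4 and the import receptor gene tomm-20 at 232.8. Assembly genes outside the cox- names had one at 5 of 11 (45.5%), with a median of 95.3, led by sco-1 (227.6), for copper delivery to complex IV, and coa-3 (103.5). Of the ADP/ATP carriers, which exchange the product of complex V, only ant-1.1 had one (1 of 4, 313.3 at -11 bp). Ubiquinone synthesis, which makes the electron carrier between complexes I or II and III, had 1 of 8 (12.5%), coq-1 at -728 bp with 69.8, a share close to that of all genes. None of the 12 names listed for mitochondrially encoded subunits was matched in the annotation used.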

How the data were processed

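ChIP-seq peak lists of 2 biological replicates (1 group) were used as deposited. Per the labels, chromatin was sonicated to 200 to 800 bp and coordinates are on ce11; no aligner or peak caller is given in the sources used here. For every peak the authors deposited a score scaled from its IDR (irreproducible discovery rate), a signal that measures enrichment without a stated scale, the −log10 of its q-value and a summit position, and in ranked lists also the −log10 of the global IDR. Read counts are not part of these lists: depth is unknown, and no interval can be given.

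Each member was assigned its nearest summit within 1000 bp of the outermost annotated 5' end (Ensembl release 115), in Python 3.11.15 with numpy 2.4.6 and pandas 2.3.3. Ranks order a list by signal. Replicate support was an overlap of at least 1 bp. Flanking windows lay 500 bp away. The assignment was tested on simulated summits. Every member is named, with neighbours whose start lies within 1000 bp of its summit and, of each list of other genes, the 2 with the strongest summit. R53.4 and R04F11.2 are named besides, as genes of complex V outside the rule. The members and lists were chosen with earlier results of these data known. With 1 group no test was made, and shares over all nuclear protein-coding genes are the background. Alternatives were the other thresholded list, single replicates, distances of 500 and 250 bp, other starts, stronger peaks, limits on the q-value (0.05) and global IDR (0.01), the nearest start alone, subunits alone and other overlaps; a gap of 500 bp between neighbours was added after the data were seen.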

Additional observations from a re-analysis of the deposited data

How the results depend on the processing

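No paired analysis was possible because the series has 1 group. The number of genes with a summit (24) was 13 at 250 bp, where 6.26% of all genes have one, 15 with the stronger 50% of peaks, and 18 with either replicate's list alone. Summits upstream (22) were 12 and 14 under the first 2 of these settings. The median position (-204.5 bp) ranged from -235 to -218.5 bp with single replicates. It was -165 bp at 250 bp, -236 bp from the start codon, -253 bp with the stronger peaks and -224.5 bp without the cox- assembly genes. The median signal (166.5) was 86.6 and 107.0 in the lists of replicates 1 and 2, whose scale is not known to match, 210.9 with the stronger peaks, where selection on signal raises it, and 184.0 when a summit counted for the nearest start alone. The other 37 of 51 recomputed values moved by less than 1 SD between the replicates' values or, for counts, less than 1.5 times. By complex, 250 bp left complex III with 2 summits of 4, complex IV subunits with 1 of 5, complex V with 3 of 6 and cytochrome c with 0 of 1. Replicate 1's list alone and the stronger peaks each left complex I with 1 of 3 and cytochrome c with 0. Either replicate alone, the stronger peaks or the nearest start left the assembly genes with 0 of 2. Replicate support (16 in both) was 14 with a reciprocal overlap of 50% and 16 with summits within 100 bp. A global IDR of at most 0.01 removed 0 of the 4277 peaks, whose highest value was 0.00999. The lists give no read depth, so genes without a summit cannot be told from genes below the detection limit.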
